A study of Mus musculus with 9 samples.

Results

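The microglia identity transcription factors are the DNA-binding proteins that set a myeloid cell on the microglial path and keep it there. They were taken as 9 genes, Spi1, Irf8, Irf5, Runx1, Cebpa, Cebpb, Mef2a, Mef2c and Sall1. The genes were chosen by name as lineage and identity factors and not by their values, though earlier results of these data were known. Of these, 8 had a probe set with a single gene symbol, out of 22180 genes tested. The probe set that covers Irf5, an interferon regulatory factor downstream of Toll-like receptors, is also assigned to the neighbouring gene Tnpo3, so Irf5 is not analysed here. Irf8 and Mef2c had 2 probe sets each, and the brighter one stands for the gene.

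Microglia had been sorted by FACS from brains of female C57Bl/6 mice aged 24 to 28 weeks, and their RNA was amplified and hybridised to 9 arrays, 3 per genotype. FAD DKO mice carried the familial Alzheimer's disease (FAD) transgenes with floxed Hdac1 and Hdac2 alleles (Hdac1/2fl/fl) and Cx3cr1CreERT2, a tamoxifen-dependent Cre placed in the fractalkine receptor gene that is active in microglia and some other myeloid cells. FAD mice carried the transgenes and the floxed alleles without the Cre, and mice labelled Wildtype have none of these alleles in their labels. All mice, whatever their genotype, received 8 mg tamoxifen at 6 weeks of age. The FAD DKO and FAD groups therefore differ in the Cre insertion as well as in the deletion, and FAD and wild type mice differ in the floxed alleles as well as in the transgenes. Nothing in the labels ties each array to its own mouse, and the p-values therefore reflect differences among samples that could be technical.

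Spi1 encodes PU.1, an ETS-family factor that opens myeloid enhancers and is required for microglia to form. Irf8 binds DNA poorly alone and acts with PU.1 at composite sites, Runx1 works with its partner Cbfb in blood cell development, and the C/EBP proteins encoded by Cebpa and Cebpb act beside PU.1 in myeloid cells. Cebpb is in addition induced by inflammatory stimuli. Mef2a and Mef2c are MADS-box factors that class IIa histone deacetylases can hold in a repressed state, and Sall1 is a zinc finger factor that, among brain macrophages of the mouse, marks microglia and keeps their homeostatic genes on.

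The sequences just before the transcription start are shown for 3 members: Cebpb, which had the largest difference below wild type, Irf8, which had the largest above it, and Cebpa, the relative of Cebpb, with no such difference. They are RefSeq windows of build GRCm38.p6 covering the 250 bases before the annotated start, on the strand of the gene, 5′ to 3′. Capitals mark the letters TATAAA or TGACG, in either orientation. The TGACG letters are the core of a cyclic AMP response element, and TATAAA is the core of a TATA box.
Cebpb: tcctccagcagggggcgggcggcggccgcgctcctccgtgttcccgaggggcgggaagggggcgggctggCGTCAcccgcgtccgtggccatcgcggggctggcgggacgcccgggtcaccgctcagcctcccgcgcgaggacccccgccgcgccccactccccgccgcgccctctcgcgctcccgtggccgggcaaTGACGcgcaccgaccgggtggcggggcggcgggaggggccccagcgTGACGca
Irf8: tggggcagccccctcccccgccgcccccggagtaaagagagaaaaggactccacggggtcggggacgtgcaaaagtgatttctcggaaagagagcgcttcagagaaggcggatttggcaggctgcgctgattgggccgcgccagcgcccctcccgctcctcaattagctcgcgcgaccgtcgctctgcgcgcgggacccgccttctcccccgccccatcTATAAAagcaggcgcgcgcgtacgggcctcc
Cebpa: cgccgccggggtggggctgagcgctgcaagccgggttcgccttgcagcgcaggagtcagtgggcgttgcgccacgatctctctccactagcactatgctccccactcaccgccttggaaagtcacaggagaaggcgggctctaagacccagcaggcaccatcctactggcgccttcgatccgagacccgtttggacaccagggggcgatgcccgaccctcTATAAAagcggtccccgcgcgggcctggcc
The Cebpb window lies on chr2:167688665-167688914 (plus strand), that of Irf8 on chr8:120736108-120736357 (plus strand) and that of Cebpa on chr7:35119043-35119292 (plus strand). TATAAA began 31 bases before the Irf8 start shown here and 30 bases before the Cebpa start. Of 32851 RefSeq mouse promoter windows of this length 12.4% held it on either strand. A second Irf8 window, on chr8:120738389-120738638 (plus strand) and not shown, held 0 matches to TATAAA or TGACG. The Cebpb window held TGACG or its complement 3 times, beginning 180, 53 and 7 bases before the start, and 17.8% of the windows held it at least once. The binding letters of the members themselves were searched on both strands as GAGGAAGT for PU.1, a pair of GAAA runs 2 bases apart for interferon regulatory factors, TGTGGT for Runx1, TTGCNNAA for C/EBP, and CTA and TAG 4 bases apart for Mef2. These occurred in 2.44%, 2.98%, 14%, 9.56% and 3.2% of all windows and in 0 of the 14 windows held for 8 of the 9 genes (none for Spi1), which says only that these letters are not in these windows. The matches shown share no bases with one another.

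The labels and the cell type were checked first. Hdac1 measured 7.63, 7.41 and 7.64 in FAD DKO, 8.03, 8.14 and 8.19 in FAD, and 8.07, 8.65 and 8.60 in wild type, on the deposited log2 scale. Hdac2 measured 7.89, 7.61 and 7.90 in FAD DKO, 8.56, 8.52 and 8.36 in FAD, and 8.28, 8.39 and 8.22 in wild type. For both targeted genes the FAD DKO arrays lay below all others, although neither difference from FAD passed over all genes (adjusted p = 0.376 and 0.159, limma), and where the probes lie relative to the floxed exons is not known here. Of 12 microglia markers 11 were measured, and their mean levels ran from 9.40 for Tmem119 to 12.07 for Cx3cr1, against a median of 5.449 over all genes. Lymphocyte, neuron and oligodendrocyte markers were mostly below that median, with 2 of 11, 1 of 7 and 2 of 7 at or above it. Astrocyte and endothelial or mural markers had 3 of 7 and 3 of 6 at or above it, and border macrophage markers 6 of 9, the brightest being Mrc1 at 6.05. Of the neutrophil and monocyte markers 11 of 14 stood at or above it, and their mean level ran from 5.88 to 7.39 among the FAD DKO arrays, 6.89 to 6.96 among FAD and 6.31 to 6.88 among wild type. The brightest of them, S100a8 at 10.27 and S100a9 at 9.76, stood above the microglia marker Tmem119, so the samples were not free of such transcripts.

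All 8 measured factors were well above the median of all genes on every array, and none of them differed between genotypes past the test. Their mean levels over the 9 arrays ran from 7.26 for Cebpb to 11.20 for Mef2a. Over the 9 arrays the range was 0.12 for Spi1, 0.17 for Cebpa and for Sall1, 0.19 for Mef2c, 0.27 for Mef2a, 0.29 for Runx1, 0.36 for Irf8 and 0.44 for Cebpb. The SD within groups was 0.038 for Spi1, the lowest of the 8, and only 2.3% of all genes had a smaller one. The highest was 0.100 for Cebpb, and the median over all genes was 0.132 (0.104 over genes at or above the median level). The plot of the 8 factors by array shows these levels on panels that span the same log2 range.

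**Figure D1:**
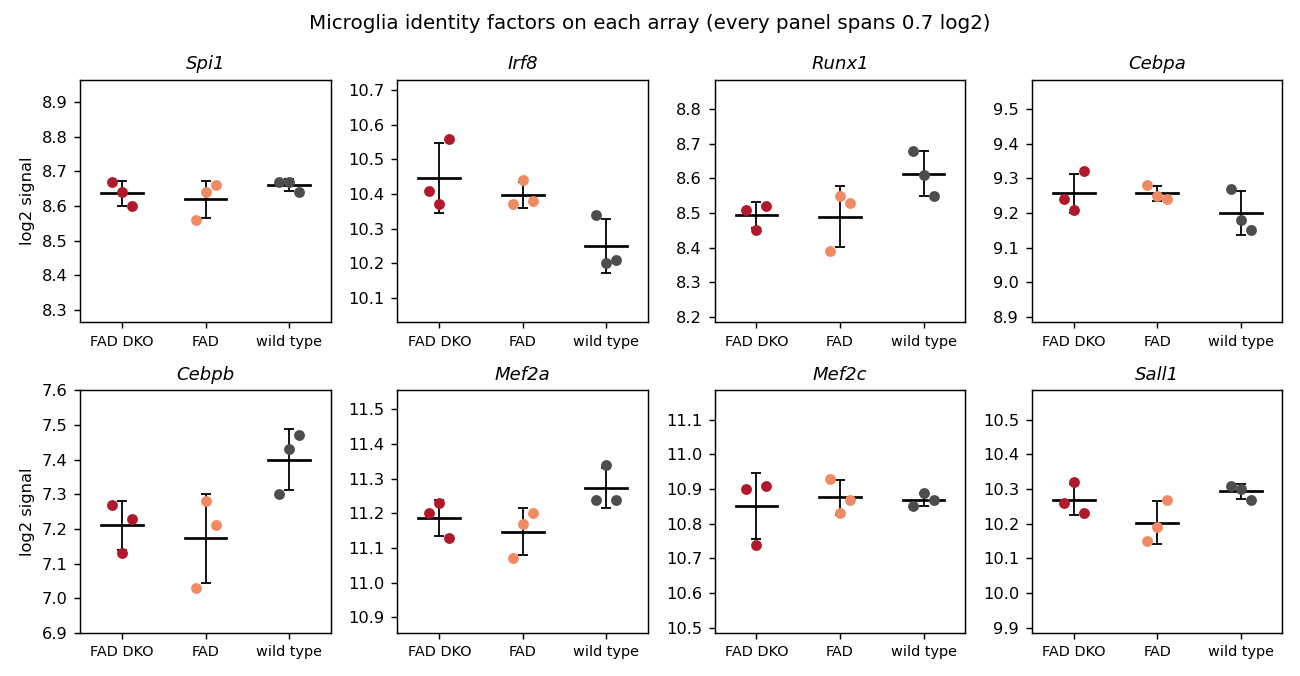
Log2 signal (y axis) of each measured identity factor in FAD DKO, FAD and wild type microglia (x axis, 3 arrays each). Points are arrays, the thick bar is the group mean and the error bar its SD, and all panels span the same range. The arrays of Cebpb, Runx1 and Mef2a sit lower and those of Irf8 higher in both FAD genotypes than in wild type, while the groups of Spi1, Cebpa, Mef2c and Sall1 overlap.

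Setting FAD against wild type addresses whether microglia of the Alzheimer's disease model keep the factors that define them. Of the 8 members 0 passed an adjusted p of 0.05 in limma, where 0.0406% of all genes did. At an unadjusted p under 0.05 there were 0 higher and 1 lower, Cebpb, where 8.43% of all genes passed (4.41% higher and 4.02% lower). The groups did not overlap for 4 members, Irf8 on the higher side and Cebpb, Runx1 and Mef2a on the lower side. Over all genes 11.8% did not overlap, 6.37% higher and 5.46% lower. The median absolute difference of the 8 was 0.109, against 0.087 over all genes and 0.081 over genes at or above the median level. The gaps between the groups were narrow, at 0.0399 for Mef2a, 0.0316 for Irf8, 0.0187 for Cebpb and 0.000863 for Runx1 on the log2 scale.

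Cebpb, the inflammation-responsive C/EBP factor, measured 7.03, 7.28 and 7.21 in FAD and 7.30, 7.43 and 7.47 in wild type. Its difference of -0.22 (SE 0.0863, 95% interval -0.42 to -0.03) corresponds to a level 1.17-fold lower in FAD (adjusted p = 0.554, limma). FAD replicate 1 was the lowest array, and without it the difference was -0.15. Cebpa, which drives granulocyte and monocyte differentiation in bone marrow, measured 9.28, 9.25 and 9.24 in FAD and 9.27, 9.18 and 9.15 in wild type. Its groups overlapped, with a difference of 0.06 (interval -0.09 to 0.20).

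Irf8 measured 10.37, 10.44 and 10.38 in FAD and 10.34, 10.20 and 10.21 in wild type, so that each FAD array stood above each wild type array. The difference was 0.15 (SE 0.075, interval -0.02 to 0.32, adjusted p = 0.656, limma). The dimmer Irf8 probe set gave 9.05, 9.22 and 9.12 in FAD and 9.13, 9.05 and 8.93 in wild type, a difference of 0.09 with overlapping groups. The separation of Irf8 was thus seen with 1 of its 2 probe sets.

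Spi1 measured 8.56, 8.64 and 8.66 in FAD and 8.67, 8.67 and 8.64 in wild type. The groups overlapped, and the interval of the difference ran from -0.18 to 0.09, so a change of more than 1.13-fold either way lies outside it. Runx1 measured 8.39, 8.55 and 8.53 in FAD and 8.68, 8.61 and 8.55 in wild type, a difference of -0.13 (interval -0.28 to 0.03) that was -0.07 without FAD replicate 1.

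Among the MADS-box factors, Mef2a measured 11.07, 11.17 and 11.20 in FAD and 11.24, 11.34 and 11.24 in wild type, a difference of -0.12 (interval -0.28 to 0.03). Mef2c, its close relative, measured 10.93, 10.83 and 10.87 in FAD and 10.85, 10.89 and 10.87 in wild type. The Mef2c groups overlapped with equal means of 10.87 and an interval of -0.15 to 0.16. Sall1 measured 10.15, 10.19 and 10.27 in FAD and 10.31, 10.30 and 10.27 in wild type, a difference of -0.09 (interval -0.24 to 0.05) with groups that met at 10.27. FAD replicate 1 gave the lowest FAD value for 6 of the 8 factors, all but Cebpa and Mef2c. On that array the mean of the 18 genes of cell isolation stress was also the highest of all 9, at 0.29 above their mean over the arrays, against -0.07 and 0.20 on the other FAD arrays and 0.06, 0.06 and 0.15 in wild type. These means lean on 2 heat shock genes of the 18. Hspa1a and Hspa1b measured 8.35 and 8.56 on FAD replicate 1, 6.50 and 5.35 on replicate 2, and 8.16 and 8.02 on replicate 3. The part of isolation stress in the factor levels was not tested.

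Setting FAD DKO against FAD addresses whether loss of Hdac1 and Hdac2 alters the identity factors in the disease model. The 8 factors were closest together here. Their differences ran from -0.02 for Mef2c to 0.06 for Sall1, with 7 above 0 and 1 below. The median absolute difference was 0.027, against 0.090 over all genes and 0.079 over genes at or above the median level. In limma 0 of 8 passed the adjusted threshold, where 0.0225% of all genes did, and 0 the unadjusted one, where 8.1% did (3.69% higher and 4.41% lower). The groups overlapped for all 8, while 11.9% of all genes did not overlap, 5.38% higher and 6.5% lower. The widest interval, that of Cebpb, reached 1.17-fold and the narrowest, that of Cebpa, 1.11-fold.

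Spi1 measured 8.67, 8.64 and 8.60 in FAD DKO, and 8.56, 8.64 and 8.66 in FAD. Cebpa measured 9.24, 9.21 and 9.32 in FAD DKO, with a mean of 9.26 in FAD DKO and 9.26 in FAD (interval of the difference -0.15 to 0.15). Mef2c measured 10.90, 10.74 and 10.91 in FAD DKO, and 10.93, 10.83 and 10.87 in FAD. For these genes the FAD DKO and FAD arrays overlapped. Sall1 measured 10.26, 10.32 and 10.23 in FAD DKO and 10.15, 10.19 and 10.27 in FAD, a difference of 0.06 (interval -0.08 to 0.21, adjusted p = 0.801, limma). Irf8 differed by 0.05 (interval -0.12 to 0.22), Mef2a by 0.04 (interval -0.11 to 0.19), Cebpb by 0.03 (interval -0.16 to 0.23) and Runx1 by 0.01 (interval -0.15 to 0.17). FAD replicate 1 again bore on the sign, since without it Cebpb stood at -0.04, Runx1 at -0.05, Spi1 at -0.01 and Mef2c at 0.01.

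The FAD DKO arrays spanned more than any other group in neutrophil and monocyte markers, whose mean was lowest on FAD DKO replicate 1 and highest on replicate 2. Relative to its mean over the 9 arrays, that of these markers was -0.89, 0.62 and 0.05 on replicates 1, 2 and 3. Cebpa and Cebpb, which those cells also use, measured 9.24 and 7.27 on replicate 1, 9.21 and 7.13 on replicate 2, and 9.32 and 7.23 on replicate 3. The part of such cells in these levels was not tested. Fewer cells of a type and less RNA per cell cannot be told apart in such samples.

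FAD DKO set against wild type shares the wild type arrays with the first comparison and the FAD DKO arrays with the second, so it is not independent of either. Of the 8 factors 0 passed the adjusted threshold in limma, where 0.14% of all genes did. At an unadjusted p under 0.05 there were 1 higher, Irf8, and 0 lower, where 8.14% of all genes passed (3.95% higher and 4.19% lower). Groups did not overlap for 4 members, with the arrays of Irf8 higher and those of Cebpb, Runx1 and Mef2a lower, where 11.9% of all genes did not overlap (5.77% higher and 6.15% lower). Irf8 measured 10.41, 10.37 and 10.56 in FAD DKO against 10.34, 10.20 and 10.21 in wild type, a difference of 0.20 (SE 0.075, interval 0.03 to 0.37, adjusted p = 0.527, limma). It was 0.14 without FAD DKO replicate 3, and the dimmer probe set, at 9.15, 9.11 and 9.12 in FAD DKO against 9.13, 9.05 and 8.93 in wild type, gave 0.09. Cebpb measured 7.27, 7.13 and 7.23 in FAD DKO against 7.30, 7.43 and 7.47 in wild type, a difference of -0.19 (interval -0.39 to 0.00, adjusted p = 0.619, limma).

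Runx1 measured 8.51, 8.45 and 8.52 in FAD DKO against 8.68, 8.61 and 8.55 in wild type (difference -0.12, interval -0.28 to 0.04). Mef2a measured 11.20, 11.23 and 11.13 in FAD DKO against 11.24, 11.34 and 11.24 in wild type (difference -0.09, interval -0.24 to 0.07), with a gap between the groups of 0.00262. The other 4 factors had overlapping groups, with differences of 0.06 for Cebpa, -0.02 for Mef2c and -0.03 for both Spi1 and Sall1. All 8 intervals lay within 1.5-fold either way, the widest, that of Cebpb, reaching 1.31-fold. The plot of differences shows the 3 comparisons side by side.

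**Figure D2:**
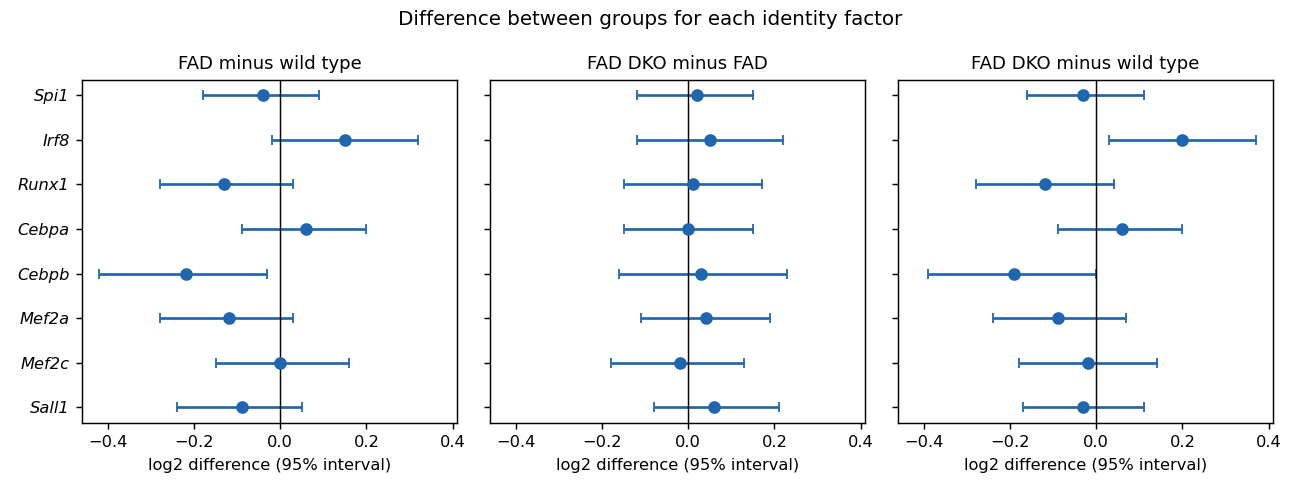
Log2 difference of each identity factor (rows) with its 95% interval from limma, in panels for FAD minus wild type (left), FAD DKO minus FAD (middle), and FAD DKO minus wild type (right). The vertical line is at 0. Intervals exclude 0 for Cebpb in the first panel and for Irf8 in the third, before adjustment over 22180 genes.

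In order of level, the group means of Cebpb were 7.17 in FAD, 7.21 in FAD DKO and 7.40 in wild type, and those of Irf8 were 10.45 in FAD DKO, 10.40 in FAD and 10.25 in wild type. For both genes the FAD DKO and FAD means differed by less than the SD of the FAD DKO arrays, and the step to wild type was the larger one. Runx1 (8.49 in FAD DKO and in FAD, 8.61 in wild type) and Mef2a (11.19 in FAD DKO, 11.15 in FAD, 11.27 in wild type) had the wild type mean highest, like Cebpb and unlike Irf8, by at most 0.13 on the log2 scale. The means of Spi1, Cebpa, Mef2c and Sall1 differed by at most 0.09 between any groups.

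The relatives of the members within their gene families were read next, 17 of 20 of them measured. In FAD against wild type 12 of the 17 lay below 0, with a median of -0.07 (members -0.07, all genes -0.01), and 0 passed the adjusted threshold in limma (0 higher and 2 lower at an unadjusted p under 0.05). Of all genes 4.41% were higher and 4.02% lower at that unadjusted p. Cebpd, the C/EBP factor most readily induced in acute inflammation, measured 7.59, 7.32 and 7.53 in FAD and 7.73, 7.71 and 8.09 in wild type. Its groups did not overlap, with a difference of -0.37 (interval -0.67 to -0.06, adjusted p = 0.524, limma), in the direction of Cebpb. In FAD DKO against wild type it stood at -0.35 (adjusted p = 0.526, limma) and against FAD at 0.02. Without wild type replicate 3, the highest array, it stood at -0.24 in FAD and -0.23 in FAD DKO against wild type. Irf7, the interferon-induced amplifier of type I interferon, differed by -0.38 in FAD against wild type (adjusted p = 0.514, limma) with overlapping groups, opposite in sign to Irf8. In FAD DKO against FAD the relatives had a median of 0.03, with 13 of 17 above 0. Mef2d, a further MADS-box relative, was at 0.26 there (8.85, 8.73 and 8.92 in FAD DKO, 8.51, 8.48 and 8.73 in FAD), and Ddit3, the stress-induced C/EBP-family inhibitor CHOP, was at -0.36 (adjusted p = 0.478 and 0.537, limma). Ddit3 stood at -0.24 without FAD replicate 1 and at -0.24 without FAD DKO replicate 2.

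Of 30 other transcription factors of microglia 27 were measured, and 0 passed over all genes in limma in any comparison. At an unadjusted p under 0.05 there were 2 higher and 1 lower in FAD against wild type, 2 and 5 in FAD DKO against FAD, and 3 and 5 in FAD DKO against wild type. The shares of all genes higher and lower were 4.41% and 4.02%, 3.69% and 4.41%, and 3.95% and 4.19%, in the same order. Bhlhe40, a helix-loop-helix repressor, measured 6.86, 6.70 and 7.03 in FAD DKO, 6.48, 6.79 and 6.40 in FAD, and 5.84, 6.42 and 5.54 in wild type. Its difference was 0.93 in FAD DKO against wild type (interval 0.47 to 1.40, adjusted p = 0.179, limma) and 0.62 in FAD against wild type (adjusted p = 0.502, limma). Klf2, a zinc finger factor that restrains myeloid activation and a Mef2 target, stood at -0.49 in FAD DKO and -0.34 in FAD against wild type (adjusted p = 0.335 and 0.573, limma), with no overlap in either comparison.

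Against FAD, the FAD DKO arrays stood apart for 3 of the 27 other factors on the higher side and 5 on the lower. Over all genes 11.9% did not overlap, 5.38% higher and 6.5% lower. Id2 and Klf4 were among those on the lower side. Id2, an inhibitor of helix-loop-helix factors, measured 7.88, 7.51 and 7.71 in FAD DKO, and 8.35, 8.24 and 8.31 in FAD. The difference was -0.60 (interval -0.82 to -0.39, adjusted p = 0.198, limma), and the wild type values of 8.23, 8.11 and 8.12 were likewise above every FAD DKO array. Klf4, a zinc finger factor of monocytes, was at -0.59 against FAD (adjusted p = 0.328, limma). Smad3, which carries the TGF-beta signal that microglia need, was at -0.20 and Tal1, a blood stem cell factor, at 0.34 (adjusted p = 0.485 and 0.504, limma). Tal1 measured 7.18, 7.06 and 7.11 in FAD DKO and 6.90, 6.95 and 6.48 in FAD, and without FAD replicate 3 the difference was 0.19. Each of these differences was larger in size than that of any of the 8 identity factors in the same comparison. These genes were, however, named for their small p-values, so that outcome follows in part from the choice. All 27 other factors had a median of -0.04 there, with 9 above 0 and 18 below. Of the 18 genes of cell isolation stress, 16 were below 0 in FAD DKO against FAD, with a median of -0.37. Against wild type 16 of the 18 were likewise below 0, also with a median of -0.37. Atf3, a stress-induced factor, measured 9.21, 9.12 and 9.02 in FAD DKO, 9.96, 9.92 and 9.85 in FAD, and 9.67, 9.91 and 9.82 in wild type. It fell by 0.79 against FAD (adjusted p = 0.0314, limma) and by 0.69 against wild type (adjusted p = 0.0261, limma). The call against FAD was lost in 11 of 17 alternatives, with an adjusted p of up to 0.216 in limma, and that against wild type in 8 of 17, with one of up to 0.133, while the differences stayed between -0.84 and -0.75 and between -0.75 and -0.63. Without 1 array the call against FAD was kept only on leaving out wild type replicate 1. The part of these stress genes in the values of Id2 and Klf4 was not tested, nor was their part in the differences of the identity factors.

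**Figure D3:**
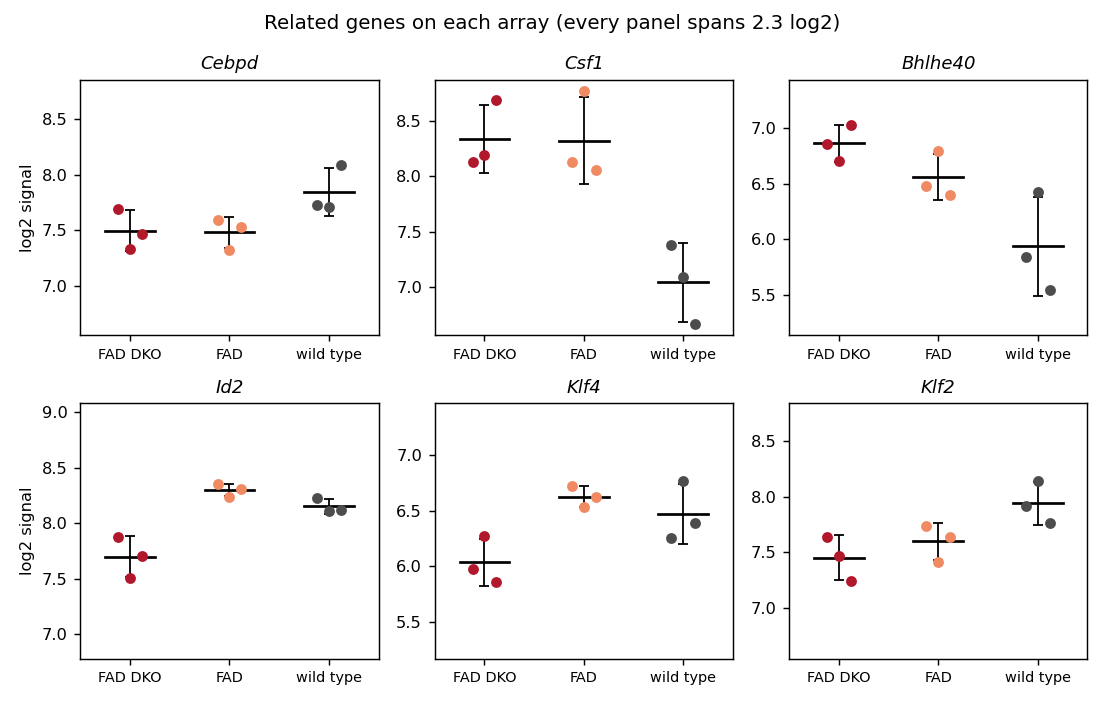
Log2 signal (y axis) of 6 related genes in FAD DKO, FAD and wild type microglia (x axis, 3 arrays each), drawn as group mean and SD with the arrays as points, on panels that span the same range. Csf1 stands above and Cebpd and Klf2 below wild type in both FAD genotypes, Id2 is lowest on the FAD DKO arrays, and Bhlhe40 in FAD and Klf4 in FAD DKO overlap wild type.

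Of 21 partners and upstream regulators 20 were measured, with medians within 0.01 of 0 in all comparisons. In limma 0 passed, with 3 higher and 1 lower at an unadjusted p under 0.05 in FAD against wild type, 0 in FAD DKO against FAD, and 1 higher and 2 lower in FAD DKO against wild type. The shares of all genes higher and lower were 4.41% and 4.02%, 3.69% and 4.41%, and 3.95% and 4.19%, in the same order. Among the partners and regulators was Csf1, a ligand of the receptor on which microglia depend for survival. It measured 8.13, 8.19 and 8.69 in FAD DKO, 8.13, 8.77 and 8.06 in FAD, and 7.38, 7.09 and 6.67 in wild type. Csf1 was thus above every wild type array in both FAD genotypes, by 1.29 in FAD DKO (interval 0.74 to 1.84, adjusted p = 0.103) and 1.27 in FAD (interval 0.72 to 1.82, adjusted p = 0.175, limma). Cbfb, the partner of Runx1, stood at 0.25 in FAD against wild type, opposite in sign to Runx1 (adjusted p = 0.584, limma). Trib1, which targets C/EBP-alpha for degradation, stood at -0.28 in FAD DKO against wild type (adjusted p = 0.414, limma), and Myd88, the adaptor between Toll-like receptors and Irf5, at -0.20 (adjusted p = 0.404, limma).

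Genes known to be controlled by the members were described by list, with 0 of the 39 measured genes past the adjusted threshold in limma in any comparison. At an unadjusted p under 0.05 there were 1 higher and 4 lower in FAD against wild type, 1 and 3 in FAD DKO against FAD, and 1 and 9 in FAD DKO against wild type. Over all genes the shares higher and lower were 4.41% and 4.02%, 3.69% and 4.41%, and 3.95% and 4.19%, in the same order. The 9 genes that mouse microglia lose without Sall1 all lay below 0 in FAD against wild type, with a median of -0.12 (all genes -0.01), beside -0.09 for Sall1 itself. Of these, 4 did not overlap, all on the lower side, where 11.8% of all genes did not overlap and 5.46% were lower. Among them was Olfml3, a secreted matrix protein, at 9.66, 9.60 and 9.83 in FAD and 9.87, 9.91 and 9.86 in wild type (difference -0.18, adjusted p = 0.589, limma). In FAD DKO against wild type 8 of the 9 lay below 0, with a median of -0.14, and 6 did not overlap, all lower, where 11.9% of all genes did not overlap and 6.15% were lower. The shift was not particular to this list. Of the 11 measured microglia markers, which share genes such as Tmem119, P2ry12, Olfml3 and Cx3cr1 with it, 10 lay below 0 in FAD against wild type (median -0.08). Of these markers 4 did not overlap, all lower. In FAD DKO against wild type 8 of the 11 lay below 0 (median -0.05), and 5 stood apart on the lower side and 1 on the higher. The isolation stress genes were below 0 in FAD DKO against wild type too, by the median given above, and their part in the Sall1 list was not tested. The Sall1 list holds Cx3cr1, into which the Cre was inserted in FAD DKO. Cx3cr1 measured 11.86, 11.95 and 11.82 in FAD DKO, 12.14, 12.13 and 12.11 in FAD, and 12.13, 12.27 and 12.22 in wild type.

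Within this list the FAD DKO arrays went both ways against FAD, with 4 genes above and 5 below 0. Tmem119, a membrane protein used as a microglia marker, was at 0.29 (9.54, 9.45 and 9.55 in FAD DKO, 8.98, 9.20 and 9.48 in FAD), while P2ry12, the purinergic receptor of resting microglia, was at -0.12, with each FAD DKO array below each FAD array. Neither passed in limma (adjusted p = 0.572 and 0.643), and Tmem119 stood at 0.17 without FAD replicate 1. Targets of PU.1 had medians of -0.03 in FAD against wild type, 0.03 in FAD DKO against FAD and 0.04 in FAD DKO against wild type. One of them is Cybb, the catalytic subunit of the phagocyte NADPH oxidase and also a target of Irf8, which stood at 7.63, 7.65 and 7.31 in FAD against 6.47, 7.19 and 6.60 in wild type (difference 0.78, adjusted p = 0.386, limma). The list of Irf8 and Irf5 targets, Cybb included, had a median of -0.03 in that comparison. Of the 14 measured neutrophil and monocyte markers 13 lay above 0 there and 1 below, with a median of 0.27 (all genes -0.01). The part of such cells in the Cybb values was not tested.

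C/EBP targets had a median of 0.01 in FAD against wild type, with 5 of 10 above 0. Il6, a cytokine induced through C/EBP-beta, measured 6.35, 6.88 and 6.61 in FAD and 7.17, 7.42 and 6.91 in wild type, a difference of -0.55 with the sign of Cebpb and groups that did not overlap (adjusted p = 0.436, limma). The mean of the C/EBP targets, relative to its mean over the 9 arrays, was -0.19, 0.16 and -0.05 on the FAD DKO arrays, lowest on replicate 1 and highest on replicate 2 like the neutrophil and monocyte markers, whose part in it was not tested. Lcn2, 1 of these 10 targets, had the same order at 5.86, 7.84 and 6.89 and weighs on that mean. Il1b, also a C/EBP-beta target, had the sign opposite to that of Il6, at 6.84, 6.89 and 7.61 in FAD DKO, a mean of 6.95 ± 0.0574 (SD, n = 3) in FAD, and 6.76, 6.49 and 6.41 in wild type. It stood at 0.56 in FAD DKO and 0.40 in FAD against wild type (adjusted p = 0.454 and 0.628, limma), and at 0.31 in FAD DKO without replicate 3. The part of neutrophils and monocytes in the Il1b values was not tested either. Mef2 targets had 4 of 5 below 0 in FAD DKO against FAD with a median of -0.15, although Mef2a and Mef2c stood at 0.04 and -0.02. The list holds Klf4 and also Jun (-0.30, adjusted p = 0.382, limma) and Nr4a1, immediate early genes that are on the isolation stress list as well.

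**Figure D4:**
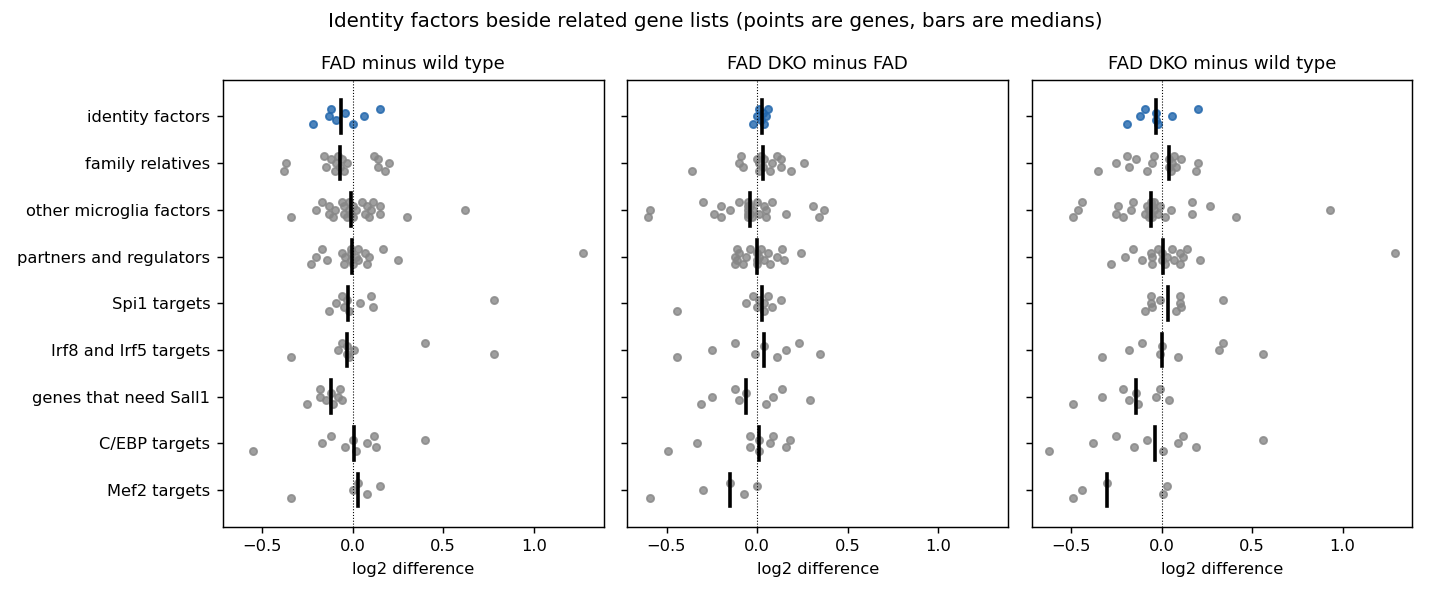
Log2 difference (x axis) of single genes in the identity factor list and 8 related lists (rows), in panels for FAD minus wild type (left), FAD DKO minus FAD (middle), and FAD DKO minus wild type (right). Points are genes and black bars list medians. The identity factors lie between -0.22 and 0.20 in every panel, and Csf1, among the partners and regulators, is the far point at 1.27 and 1.29.

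The genes whose pattern over the 9 arrays was most like that of a member were looked for among the 11090 genes at or above the median level, by Pearson's r. The highest values were those of Hspd1 with Irf8 (r = 0.983), Uba7 with Runx1 (r = 0.978), Grap with Cebpb (r = 0.978) and Gramd1a with Sall1 (r = 0.975). Eif3e came first for Cebpa (r = 0.966), Slc25a15 for Mef2c (r = 0.957), Cep68 for Spi1 (r = 0.953) and Gimap6 for Mef2a (r = 0.949). The 9 arrays share groups and normalization, and these are the extremes of many comparisons, so they describe these arrays. None of the 8 genes is another member.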

How the data were processed

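The values deposited by the authors are log2 signals, one per probe set and array; RMA is the tool named per the submitters' processing notes, and its version is not given in the sources used here. That the scale is log2 was inferred from the range of the values, with array medians between 5.346 and 5.398. Detection calls were not used here, and the number of arrays limits the precision. Of 41345 probe sets, 23521 had 1 gene symbol, 1814 several and 16010 were not listed in the annotation. The brightest probe set stood for a gene. One limma 3.58.1 fit (R 4.3.3, lmFit and eBayes) held all 9 arrays with a mean per group, and differences were tested on 22180 genes, two-sided, with Benjamini-Hochberg adjustment and a threshold of 0.05. The fit was tested on simulated data. Named genes were the members, the 4 smallest p-values of each list and the 3 most similar genes per member; the text uses a part. Members, lists and searched motifs were chosen with earlier results of these data known. Alternatives were a low-signal filter, quantile normalization, median centring, a trended and robust variance, a fit of 2 groups alone, weights per array, averaging of all probe sets of a gene, a replicate block and leaving out each array. Figures used Python 3.11.15 and matplotlib 3.10.9.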

Additional observations from a re-analysis of the deposited data

How the results depend on the processing

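Under the 17 alternatives 0 of the 8 factors were called in any comparison, and the lowest adjusted p of any factor in limma was 0.296 in FAD against wild type, 0.675 in FAD DKO against FAD and 0.258 in FAD DKO against wild type. Of 408 recomputed differences 387 kept their sign. The 21 that turned belong to differences near 0, and the cause was not tested. In FAD against wild type Mef2c was at -0.03 with quantile normalization, -0.01 with array weights, -0.01 with the mean of its probe sets, and between -0.03 and 0.03 on leaving out 1 array. In FAD DKO against FAD, median centring gave -0.01 for Spi1, -0.02 for Runx1 and -0.02 for Cebpa, and array weights gave 0.00482 for Mef2c. Leaving out 1 array there gave -0.01 to 0.04 for Spi1, -0.01 to 0.09 for Irf8, -0.05 to 0.04 for Runx1, -0.03 to 0.03 for Cebpa, -0.04 to 0.08 for Cebpb and -0.05 to 0.03 for Mef2c, which in FAD DKO against wild type ran from -0.05 to 0.03. Irf8 in FAD DKO against wild type ran from 0.14 to 0.24 and Cebpb in FAD against wild type from -0.28 to -0.15.

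The count of all genes called moved more. In FAD against wild type it was 9, and 45 with the low-signal filter (11090 genes tested), 14 with quantile normalization, 20 with median centring, 43 with a trended and robust variance, 5 with the 2 groups alone, 22 with array weights and 8 to 12 on leaving out 1 array. In FAD DKO against FAD it was 5, and 11 with the filter, 3 with quantile normalization, 12 with the trended variance, 0 with the 2 groups alone and 0 to 5 on leaving out 1 array. In FAD DKO against wild type it was 31, and 114 with the filter, 124 with the trended variance, 13 with the 2 groups alone, 82 with array weights and 2 to 28 on leaving out 1 array. With the filter and with the trended variance 2 of the other listed genes were called in that comparison, Csf1 (adjusted p = 0.0403 and 0.0428, limma) and Cx3cr1 (0.0394 and 0.019). Same-numbered arrays showed little shared deviation over the genes (correlations of -0.11 to 0.122). Such values from 3 arrays per group cannot exclude that the numbers pair the samples. With the number as a replicate block, 2 genes were called in FAD DKO against FAD and 11 in FAD DKO against wild type, and 0 factors.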
